A study of Arabidopsis thaliana with 18 samples.

Results

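The data describe how the difference between 35S:RPS4-HS and Col-0 leaves of Arabidopsis thaliana changed between 4 h and 8 h after a temperature shift. The quantity is the line effect at 8 h (35S:RPS4 minus Col-0, as a log2 fold change) minus the line effect at 4 h, here called the change of the line effect. It was computed for 19674 genes from 12 of the 18 libraries of the series, 3 for each line at each time, and it used no library taken before the shift. All plants grew at 28 °C for 3.5 weeks and were then moved to 19 °C, and poly(A) RNA of leaves was sequenced. 35S:RPS4-HS (called 35S:RPS4 from here on) is Col-0 with a transgene for the receptor RPS4 under the 35S promoter of a plant virus, which is active in most plant tissues. No pathogen was given in either line. Col-0 without the transgene went through the same shift. The labels do not say whether replicates were separate plants or pools, or whether 35S:RPS4 stood for a single transgenic event, so that a p-value here reflects the spread between these libraries alone, which may be technical.

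RPS4 belongs to the TIR class of NLRs, receptors inside the cell that start effector-triggered immunity. Receptors of this class signal through EDS1, paired with PAD4 or SAG101, and through the helper NLRs of the ADR1 and NRG1 families. Signalling begins with calcium, MAP kinases and quickly induced transcription factors, and leads to synthesis of salicylic acid (SA) and N-hydroxypipecolic acid (NHP), while transcripts for photosynthesis and growth often decline. Measuring the line effect at a pair of times separates transcripts whose difference was passing from those whose difference was still growing or appeared late.

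The libraries held 23876651 to 36291942 counts in genes, and a floor of 3 counts in a library stood at 0.0836 to 0.149 CPM (counts scaled to a common library size by the TMM method). CPM are listed in the order of replicates 1, 2 and 3, and log2 fold changes carry their SE. A gene is said to have risen or fallen, or is called, where edgeR's quasi-likelihood test gave an adjusted p below 0.01 for a difference of more than 2-fold in size. RPS4 itself stood at 14.7, 13.8 and 14.9 CPM in Col-0 at 4 h and at 19.9, 14.2 and 15.7 CPM at 8 h. In 35S:RPS4 it stood at 2039, 1870.0 and 2574 CPM at 4 h and at 716, 658 and 777 CPM at 8 h. The 35S:RPS4 libraries lay above every Col-0 library at both times, and those of 8 h lay below those of 4 h. The line effect on RPS4 thus went from 7.22 ± 0.20 to 5.43 ± 0.18, a change of -1.79 ± 0.22 (edgeR, adjusted p = 1.7e-05). Transcripts of the transgene and of the resident gene are counted together in these values. Replicate 1 of 35S:RPS4 at 4 h lay apart from replicates 2 and 3 in several genes described here, being lower in MPK3 and MYB51 and higher in LHCB1.1, HSP70 and GER3. Without it the changes of MPK3 (-3.76), LHCB1.1 (-3.07) and HSP70 (4.93) kept their calls. Replicate 3 of Col-0 at 8 h stood apart in other genes, with 11.3 CPM of ZAT10 against 2.47 and 1.57 CPM in replicates 1 and 2, and 32.1 CPM of HAB1, a phosphatase of abscisic acid signalling, against 4.46 and 5.01 CPM. For several gene lists, counts that moved by more than 1.5 times without a library are given with that value beside them.

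The line effect changed in 7339 genes. It moved upwards in 2697 (13.7% of the genes tested) and downwards in 4642 (23.6%). In 7131 of the 7339 the sign was the same for all 81 ways of taking 1 library from each group. These choices reuse the libraries that gave the calls and are no separate support. The line effect itself was called above 0 in 3382 genes at 4 h (17.2%) and in 5379 at 8 h (27.3%), and below 0 in 2440 at 4 h (12.4%) and in 5978 at 8 h (30.4%). The median change over all genes tested was -0.25 with TMM scaling and -0.06 when libraries were scaled by their totals alone. Directions of groups of genes were therefore checked under both scalings and are read against these medians.

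By their calls at 4 h and 8 h, the genes fell into classes. A shrinking rise was seen in genes higher in 35S:RPS4 at 4 h whose line effect then moved down. In 340 of them the line was still called higher at 8 h (median line effect 4.79 at 4 h and 2.55 at 8 h), in 368 it was no longer called (2.35 and -0.07), and in 109 it was called lower (2.01 and -2.39). A growing rise was seen in 504 genes (median line effect 1.81 at 4 h and 3.88 at 8 h) and a late rise, not called at 4 h, in 1691 (0.18 and 1.80). A growing fall was seen in 968 genes (-1.71 and -4.91) and a late fall in 2610 (-0.24 and -2.16). A shrinking fall was rare, with 13 genes still called lower at 8 h, 151 no longer called and 51 called higher. The remaining 534 genes passed for the change with other combinations of calls. A further 1778 genes were called higher at both times, and 1040 lower at both times, with no call for the change.

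**Figure D1:**
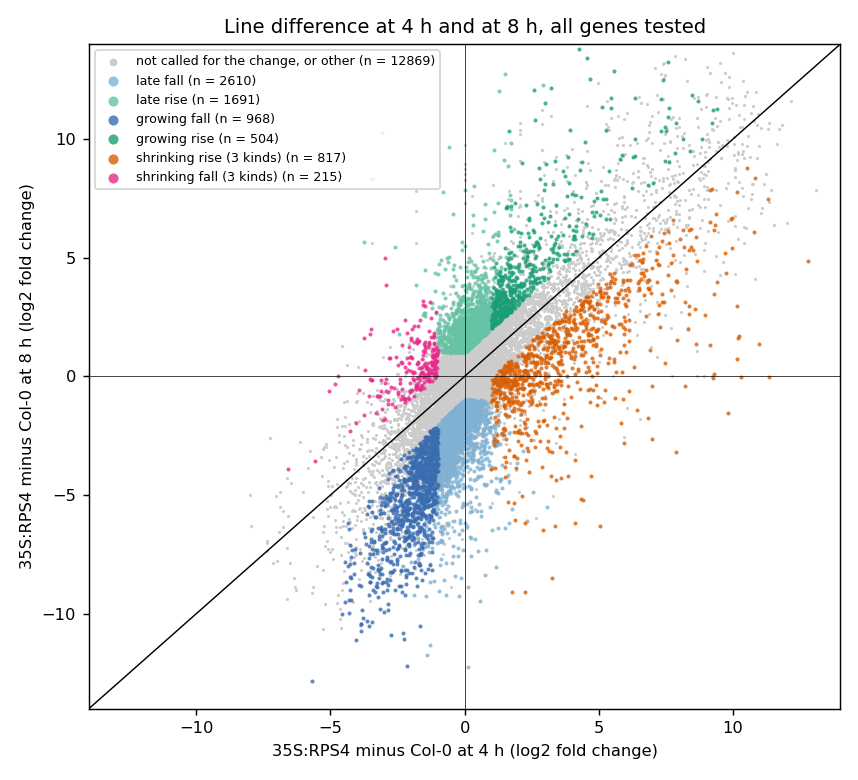
Line effect of each gene tested at 4 h (horizontal axis) and at 8 h (vertical axis), both as log2 fold changes of 35S:RPS4 over Col-0, with genes coloured by class and the diagonal marking no change. The 109 genes of the shrinking rise that were called lower at 8 h lie in the lower right of the plot, and the 2610 genes of the late fall lie below the diagonal near 0 on the horizontal axis.

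The change of the line effect came mainly from 35S:RPS4. Between 4 h and 8 h that line rose in 2800 genes (14.2%) and fell in 5019 (25.5%), while Col-0 rose in 941 (4.78%) and fell in 964 (4.9%). Among the 7339 genes called for the change, 35S:RPS4 moved in its direction with no call in Col-0 in 4874. In 472 only Col-0 was called, moving against the direction of the change, in 314 the lines were called in opposite directions, in 246 in the same direction, and in 1433 neither line was called on its own. Hours since the shift and hours of the day passed together, so that they cannot be told apart within a line. In RNA of whole leaves, fewer cells of a type and less RNA per cell cannot be told apart either.

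In EDS1, its partners and the helper NLRs, the line effect was large at both times and mostly did not pass for a change. EDS1, the shared partner of TIR-type receptors, stood at 1371, 1112 and 1329 CPM in 35S:RPS4 at 4 h and at 992, 1029 and 950.2 CPM at 8 h, against 12.8 to 21.4 CPM in the 6 Col-0 libraries. Its line effect was 6.51 ± 0.15 and 5.65 ± 0.14, a change of -0.86 ± 0.17 that did not reach the fold required. PAD4, a lipase-like partner of EDS1, had a line effect of 5.58 ± 0.17 and 6.47 ± 0.18. With libraries scaled by their totals, 1 of 8 members of the EDS1 hub tested moved up and 1 moved down. With TMM scaling 0 moved up and 2 moved down, 25% against 23.6% over all genes tested. These were AT5G66900, a gene of the NRG1 family, with a change of -1.28, and the helper receptor gene ADR1-L2, with a change of -1.08. ADR1-L2 was not called when Col-0 replicate 2 at 4 h was left out (-0.89), nor when Col-0 replicate 3 at 4 h (-1.01), 35S:RPS4 replicate 2 at 4 h (-0.98) or 35S:RPS4 replicate 3 at 8 h (-1.05) was left out.

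Of 22 NLR genes, 0 moved up and 9 moved down, RPS4 among them (median change -0.65, median line effect 2.44 at 4 h and 1.61 at 8 h). The share that moved down was 40.9%, against 23.6% over all genes tested. In 35S:RPS4, 16 of the 22 were called higher at 4 h and 15 at 8 h, and 1 was called lower at each time. WRR4, a TIR-type receptor gene for resistance to white rust, stood at 377, 315 and 457 CPM in 35S:RPS4 at 4 h and at 53.0, 55.1 and 68.9 CPM at 8 h, a change of the line effect of -1.90 ± 0.23. RPM1, a coiled-coil type receptor gene for bacterial effectors, went from a line effect of 2.70 ± 0.24 to 0.85 ± 0.23, and it overlaps an exon of another gene on its own strand. Other members kept their difference: SNC1, a TIR-type receptor gene, had line effects of 2.47 and 2.67 and RRS1, the partner receptor of RPS4, likewise differed little in its line effect between 4 h and 8 h, with changes of 0.20 and 0.02 that did not pass. With libraries scaled by their totals, 1 NLR gene was called up and 8 down.

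Most pattern receptors, their kinases and marker genes of pattern-triggered immunity stayed above Col-0. Of 19 genes in this list, 18 were called higher at 4 h and 17 at 8 h. For the change, 0 moved up and 6 (31.6%) moved down, against 13.7% and 23.6% over all genes tested. The median line effect of the list was 4.50 at 4 h and 3.38 at 8 h. BIK1, a cytoplasmic kinase that relays signals of pattern receptors, stood at 237, 234 and 353 CPM in 35S:RPS4 at 4 h and at 52.6, 43.4 and 50.4 CPM at 8 h, and at 7.06 to 9.7 CPM in Col-0. The groups of 35S:RPS4 did not overlap, and all lay above Col-0. Its change was -2.83 ± 0.22 (edgeR, adjusted p = 6.2e-07). PEPR1, a receptor for danger peptides, changed by -1.46 ± 0.21, and RBOHD, the NADPH oxidase of the immune oxidative burst, by -1.26 ± 0.23. SOBIR1, a co-receptor kinase, had line effects of 4.50 and 4.24, and CERK1, the chitin receptor, of 3.17 and 3.38, with no call for the change.

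The MAP kinase list split by member. MPK3, a MAP kinase activated within minutes of pathogen sensing, stood at 670.1, 1089 and 1099 CPM in 35S:RPS4 at 4 h and at 87.9, 102 and 115 CPM at 8 h. In Col-0 it stood at 15.1 to 25.3 CPM. The 8 h libraries of 35S:RPS4 lay well below those of 4 h and still above Col-0, and the line effect, 5.76 ± 0.23 at 4 h, had shrunk by 8 h (change -3.56 ± 0.28, edgeR, adjusted p = 6.2e-07). MPK11 went from 946, 699.8 and 1120.0 CPM to 245, 216 and 254 CPM, a change of -2.52 ± 0.39. In the opposite direction, MKK2, a MAP kinase kinase upstream of MPK4, went from 135, 109 and 127 CPM to 386, 344 and 339 CPM in 35S:RPS4 (change 1.71 ± 0.17), and MPK4 itself had a change of 1.09. Of 14 members, 4 (28.6%) moved up and 5 (35.7%) moved down, against 13.7% and 23.6% over all genes tested.

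Among 19 genes of calcium signalling, 2 moved up and 4 moved down. These shares, 10.5% and 21.1%, were near those of all genes tested (13.7% and 23.6%). Only 1 moved up when any single library other than Col-0 replicate 3 at 8 h was left out. The calmodulin-like gene CML38 stood at 176, 407 and 351 CPM in 35S:RPS4 at 4 h and at 32.5, 38.3 and 38.9 CPM at 8 h, with 0.548 to 3.19 CPM in Col-0 (change -3.72 ± 0.73). ACA13, a gene of the autoinhibited calcium pumps, went the other way, from 226, 219 and 193 CPM to 2280.0, 1977 and 2048 CPM, with 2.16 to 5.92 CPM in Col-0 (change 3.36 ± 0.40). Both genes had non-overlapping groups of 35S:RPS4 libraries. Of the 6 CAMTA genes, coding for calmodulin-binding transcription factors, CAMTA3 fell from 482, 528 and 567 CPM to 168, 154 and 165 CPM in 35S:RPS4 (line effect 3.78 ± 0.19 and 1.98 ± 0.17, change -1.80 ± 0.24). CAMTA3 overlaps an exon on the other strand, so its reads may include some of that gene. AT1G67310 changed by -2.01, AT4G16150 by 1.29, and the other 3 did not pass.

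WRKY transcription factors bind W-box elements of defence genes. Of 26 tested, 4 moved up and 5 moved down, shares near those of all genes tested. Without Col-0 replicate 2 at 4 h, or without 35S:RPS4 replicate 3 at 8 h, 2 moved up, and without Col-0 replicate 3 at 8 h the median change went from -0.38 to 0.34. WRKY33, a regulator of camalexin synthesis, stood at 893, 939.7 and 1340.0 CPM in 35S:RPS4 at 4 h and at 291, 244 and 324 CPM at 8 h (change -2.02 ± 0.42), and WRKY15 changed by -2.52 ± 0.32. WRKY51 went from 103, 78.2 and 83.9 CPM to 626, 603 and 628 CPM (change 3.38 ± 0.39), and WRKY8 from 6.63, 3.59 and 3.12 CPM to 93.7, 81.3 and 77.3 CPM (change 4.73 ± 0.55). These libraries did not overlap between the times for any of the genes named. WRKY70 (line effect 5.34 at 4 h and 4.90 at 8 h) and WRKY46 (9.08 and 9.04) had changes of -0.44 and -0.04, which did not pass. Of 22 CRK genes, coding for cysteine-rich receptor-like kinases that lie in clusters of similar copies, 4 moved up and 6 moved down. These shares were near the 13.7% and 23.6% of all genes tested. Only 2 moved up with limma voom, without any one of the Col-0 libraries at 4 h, without Col-0 replicate 1 at 8 h, and without 35S:RPS4 replicate 1 or 3 at 8 h, and the median change went from -0.56 to 0.46 without Col-0 replicate 3 at 8 h. CRK29, which overlaps an exon of its neighbour, changed by -3.71 ± 0.36 and CRK18 by 2.69 ± 0.34.

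The study's 417 immediate-early genes, defined by it on samples other than these, were tested as far as possible. Of 414 tested, 385 were called higher at 4 h and 331 at 8 h, and 0 and 18 were called lower. For the change, 25 moved up and 153 moved down, a share of 37.0% against 23.6% over all genes tested. Their median line effect was 3.72 at 4 h and 2.94 at 8 h.

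Large losses between 4 h and 8 h were found in ethylene-response factors and the indole branch of defence metabolism. Of 15 genes of ethylene synthesis and ERF factors, 0 moved up and 9 (60%) moved down, against 13.7% and 23.6% over all genes tested. Their median line effect was 3.76 at 4 h and 0.58 at 8 h. With libraries scaled by their totals, 1 moved up and 8 moved down. ERF6, a transcription factor phosphorylated by MPK3 and MPK6, stood at 87.8, 241 and 164 CPM in 35S:RPS4 at 4 h and at 1.03, 2.2 and 3.32 CPM at 8 h, while Col-0 stood at 1.14 to 1.95 CPM at 4 h and at 5.43, 5.5 and 11.2 CPM at 8 h. It was thus above Col-0 in every library at 4 h and below it in every library at 8 h (line effect 6.83 ± 0.52 and -1.73 ± 0.45, change -8.56 ± 0.67, edgeR, adjusted p = 6.2e-07). ERF5 changed by -5.89 in the same manner, and ERF104, a target of MPK6, by -4.98. ERF1 was high at both times relative to Col-0, where it had at most 3 counts over the libraries of a time, and in 35S:RPS4 it went from 7.62, 10.8 and 8.79 CPM to 1.7, 0.976 and 1.27 CPM.

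ORA59, an ERF factor that joins ethylene and jasmonate signals, had 57 counts over the 35S:RPS4 libraries at 4 h and 0 at 8 h. That is at least 23.2-fold lower at 8 h than at 4 h, and at least 44.8-fold lower than in Col-0 at 8 h, with a floor of 3 counts over the group. Col-0 itself rose from 0.0685, 0.0976 and 0.0642 CPM to 0.61, 2.59 and 1.48 CPM. Its fitted change of -11.74 depends on the prior count and is no bound. The promoter of ORA59, here the 250 bases before and 50 bases after the annotated start, is shown because this gene had the largest fitted change among the named genes of the shrinking rise. It lies at chr1:1882657-1882956, plus strand, of TAIR10.1. Capitals mark a TGACG site (read on the other strand), a CACGTG G-box and a CGCG core. Sequences come from RefSeq.
ORA59: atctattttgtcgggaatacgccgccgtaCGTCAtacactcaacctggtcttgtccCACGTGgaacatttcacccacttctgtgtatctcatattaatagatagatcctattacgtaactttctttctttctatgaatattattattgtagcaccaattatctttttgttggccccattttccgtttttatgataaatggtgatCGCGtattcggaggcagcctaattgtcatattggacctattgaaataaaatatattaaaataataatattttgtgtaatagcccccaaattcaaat

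Indole glucosinolate genes followed the same course. Of 16 genes of camalexin and indole glucosinolates, 1 (6.25%) moved up and 10 (62.5%) moved down, against 13.7% and 23.6% over all genes tested. Their median line effect was 5.65 at 4 h and 2.04 at 8 h. MYB51, a MYB factor that drives indole glucosinolate synthesis, stood at 169, 356 and 398 CPM in 35S:RPS4 at 4 h and at 16.5, 18.7 and 27.1 CPM at 8 h, with 0.548 to 4.41 CPM in Col-0 (change -5.78 ± 0.55). CYP81F2, which hydroxylates indole glucosinolates, went from 249, 305 and 469.6 CPM to 6.88, 4.68 and 8.68 CPM (change -7.25 ± 0.82), and its line effect was no longer called at 8 h. IGMT4, a methyltransferase gene of the same branch with close copies beside it, went from 1434, 2347 and 2577 CPM to 20.8, 14.2 and 25.1 CPM, below the 339.7 to 519 CPM of Col-0 at 8 h (change -7.77 ± 0.40). PEN2 (AT2G44490), a myrosinase that acts on indole glucosinolates, changed by -2.51 ± 0.22 to a level near that of Col-0.

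The camalexin genes of the same list did not share this course. CYP71A13, which acts on indole-3-acetaldoxime in camalexin synthesis, stood at 7.12, 3.21 and 7.51 CPM in 35S:RPS4 at 4 h and at 98.0, 32.6 and 51.9 CPM at 8 h (change 4.69 ± 0.57). It overlaps an exon on the other strand. PAD3, the last enzyme of camalexin synthesis, rose from 85.9, 39.6 and 105 CPM to 501, 381 and 487 CPM in 35S:RPS4, but its change of the line effect, 1.15 ± 0.90, did not pass. Col-0 held 0.0343 to 0.327 CPM of PAD3.

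Other genes turned from above Col-0 to below it. CAX1, a vacuolar calcium and proton exchanger, stood at 572, 745 and 449 CPM in 35S:RPS4 at 4 h and at 7.01, 8.14 and 14.7 CPM at 8 h, while Col-0 rose from 238, 162 and 174 CPM to 401, 384 and 396 CPM (change -6.93 ± 0.39, edgeR, adjusted p = 8.7e-08). The order of the lines was reversed with no overlap of libraries at either time. CYP707A3, a hydroxylase that breaks down abscisic acid, had 743 counts in 35S:RPS4 at 4 h and 0 at 8 h, at least 302-fold lower at 8 h than at 4 h and at least 69.1-fold lower than in Col-0. Its paralogue CYP707A4 moved the other way, from 0.498, 0.309 and 0.599 CPM to 13.9, 8.56 and 11.2 CPM, against a fall from 5.21, 3.61 and 2.25 CPM to 0.257, 0.229 and 0.548 CPM in Col-0 (change 7.97 ± 0.59). GT72B1, a glucosyltransferase gene, also turned from below Col-0 to above it, with 31.4, 35.1 and 21.5 CPM in 35S:RPS4 at 4 h and 523, 458 and 447 CPM at 8 h, against 50.2 to 86.8 CPM in Col-0 (change 4.71 ± 0.23). Of 14 abscisic acid genes, 2 (14.3%) moved up and 5 (35.7%) moved down, against 13.7% and 23.6% over all genes tested. The median change of the 14 was -0.94. Without Col-0 replicate 3 at 8 h, however, 5 moved up and 4 moved down, with a median of 0.21.

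Among the genes of the shrinking rise, 2 promoters are shown because they hold CGCGTT, an extended CAMTA-type core. They were chosen after the shares of motifs had been seen, as those with the largest change among the 10 of 56 named genes of the shrinking rise whose promoter holds it. PP2-B14, an F-box gene, stood at 82, 126 and 162 CPM in 35S:RPS4 at 4 h and at 0.0447, 0.0279 and 0.282 CPM at 8 h. Replicates 1 and 2 at 8 h lay in the range of Col-0 (0 to 0.193 CPM) and replicate 3 above it. PP2-B14 had only 10 counts left in 35S:RPS4 at 8 h. Its change was -11.35 ± 1.49. NAC090, a NAC transcription factor, went from 94.1, 61.6 and 119.9 CPM to 5.04, 3.99 and 4.27 CPM, with 0.0976 to 0.709 CPM in Col-0 (change -5.83 ± 0.68). Capitals mark CGCGTT and the W-box cores TTGACC in PP2-B14 (chr1:21062998-21063297, minus strand, of TAIR10.1) and CGCGTT, read on the other strand, and TTGACT in NAC090 (chr5:7410053-7410352, minus strand).
PP2-B14: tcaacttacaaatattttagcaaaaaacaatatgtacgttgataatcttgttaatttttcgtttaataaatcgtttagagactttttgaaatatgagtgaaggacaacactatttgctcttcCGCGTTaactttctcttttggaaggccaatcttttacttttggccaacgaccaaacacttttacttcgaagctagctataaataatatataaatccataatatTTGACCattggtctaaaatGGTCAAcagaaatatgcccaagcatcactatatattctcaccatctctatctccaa
NAC090: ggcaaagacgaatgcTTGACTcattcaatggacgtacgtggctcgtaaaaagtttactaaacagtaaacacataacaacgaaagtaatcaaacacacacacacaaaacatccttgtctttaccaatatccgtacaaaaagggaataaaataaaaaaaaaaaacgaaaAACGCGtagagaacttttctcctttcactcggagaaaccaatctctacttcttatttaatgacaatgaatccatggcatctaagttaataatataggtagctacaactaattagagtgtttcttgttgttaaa

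Of 24 jasmonate genes tested, 2 moved up and 6 moved down, 8.33% and 25.0%, against 13.7% and 23.6% over all genes tested. With all 18 libraries in the fit, 0 moved up and 2 moved down, and 1 moved up when Col-0 replicate 2 at either time, 35S:RPS4 replicate 2 or 3 at 4 h or any 35S:RPS4 library at 8 h was left out. AOS, an enzyme early in jasmonate synthesis, stood at 1456, 1914 and 1153 CPM in 35S:RPS4 at 4 h and at 129.5, 159 and 241 CPM at 8 h, the latter within or below the 183 to 420.4 CPM of Col-0 at 8 h (change -3.08 ± 0.44). JAZ8, a repressor of jasmonate responses, changed by -7.80 ± 1.09 with 616 counts at 4 h and 4 at 8 h in 35S:RPS4. TAT3, a tyrosine aminotransferase gene, went from 1400.0, 1658 and 1775 CPM to 10730.0, 8378 and 8520.0 CPM, with 2.6 to 13.4 CPM in Col-0 (change 3.05 ± 0.68, edgeR, adjusted p = 0.0020). With all 18 libraries in the fit its adjusted p was 0.0249. TAT3 and SARD1 were those called among the 8 genes the study followed by RT-qPCR. From 0 (without Col-0 replicate 2 at 4 h) to 3 (with the replicate block) of the 8 were called down. Within 35S:RPS4, 4 of the 8 fell and 1 rose. DLAH, another of the 8, fell there from 96.8, 156 and 145 CPM to 5.72, 5.02 and 7.30 CPM. Its change of -3.57 ± 1.89 did not pass, with 4 and 2 counts over the Col-0 libraries at 4 h and 8 h.

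The line effect moved up in most genes of SA and NHP synthesis and turnover. Of 14 genes, 8 (57.1%) moved up and 1 (7.14%) moved down, against 13.7% and 23.6% over all genes tested. The median line effect of the 14 was 6.09 at 4 h and 7.99 at 8 h. Those that moved up were 5 growing rises, 2 late rises and 1 fall turned to rise. ICS1, the first committed enzyme of SA synthesis in leaves, stood at 1993, 1312 and 1977 CPM in 35S:RPS4 at 4 h and at 1798, 1577 and 1669 CPM at 8 h, with overlapping libraries and a change of 0.17 ± 0.23 that did not pass. EDS5, which exports isochorismate from the plastid, rose from 1426, 1013 and 1494 CPM to 3431, 2765 and 2914 CPM (change 1.12 ± 0.25), and PBS3, which conjugates isochorismate to glutamate, changed by 1.61 ± 0.22. The steps of NHP synthesis moved further. ALD1, the aminotransferase that starts pipecolic acid synthesis, stood at 26.8, 13.4 and 32.7 CPM at 4 h and at 944, 821 and 795 CPM at 8 h, with at most 0.393 CPM in Col-0 (change 5.39 ± 0.68). FMO1, which hydroxylates pipecolic acid to NHP, went from 30.6, 21.7 and 37.2 CPM to 1048, 590.4 and 667 CPM (change 5.12 ± 0.88, edgeR, adjusted p = 2.9e-04).

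Enzymes that act on SA or NHP are in the same list. UGT76B1, a glucosyltransferase that acts on NHP and SA, stood at 1.69, 2.28 and 1.28 CPM in 35S:RPS4 at 4 h and at 2521, 2549 and 2185 CPM at 8 h, with 0.205 to 1.47 CPM in Col-0. Its line effect was not called at 4 h and was 12.03 ± 0.64 at 8 h. DMR6, an SA hydroxylase, rose from 18.8, 9.0 and 14.5 CPM to 119.5, 148 and 134 CPM. UGT74F2, which glucosylates SA, was below Col-0 at 4 h with 10.5, 12.4 and 9.22 CPM against 33.4, 33.2 and 42.7 CPM, and above it at 8 h with 81 to 97.4 CPM against 30.7, 29.6 and 42.1 CPM (change 3.16 ± 0.24). The member that moved down was SARD1, a transcription factor for ICS1 (change -1.30 ± 0.31, edgeR, adjusted p = 0.0030). 35S:RPS4 held 1651, 1261 and 1766 CPM of SARD1 at 4 h and 1855, 1665 and 1690.0 CPM at 8 h, with no call between them, while Col-0 rose from 3.87, 2.18 and 2.21 CPM to 6.87, 6.38 and 9.34 CPM. The call for SARD1 was lost without Col-0 replicate 2 at 4 h and without Col-0 replicate 3 at 4 h, with a change of -1.16 in each.

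Of 14 SA response genes, 5 (35.7%) moved up and 0 moved down, against 13.7% and 23.6% over all genes tested. Their median line effect was 2.88 at 4 h and 4.87 at 8 h. Without Col-0 replicate 3 at 8 h, 9 of the 14 moved up. PR1, the standard marker of SA signalling, stood at 0.199, 1.04 and 0.0399 CPM in 35S:RPS4 at 4 h, with replicate 2 above the 0.0321 to 0.26 CPM of Col-0, and at 972, 808 and 746 CPM at 8 h (change 11.23 ± 1.51, edgeR, adjusted p = 4.2e-05, and 13.21 without replicate 2 at 4 h). LURP1, a gene of resistance to downy mildew, went from 92, 85.4 and 118 CPM to 2638, 2312 and 2519 CPM (change 3.55 ± 0.69). PR5, a thaumatin-like protein, was already above Col-0 at 4 h and changed by 2.05 ± 0.18. NPR1 and NPR3, receptors of SA, had changes of -0.77 and 0.14 that did not pass.

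**Figure D2:**
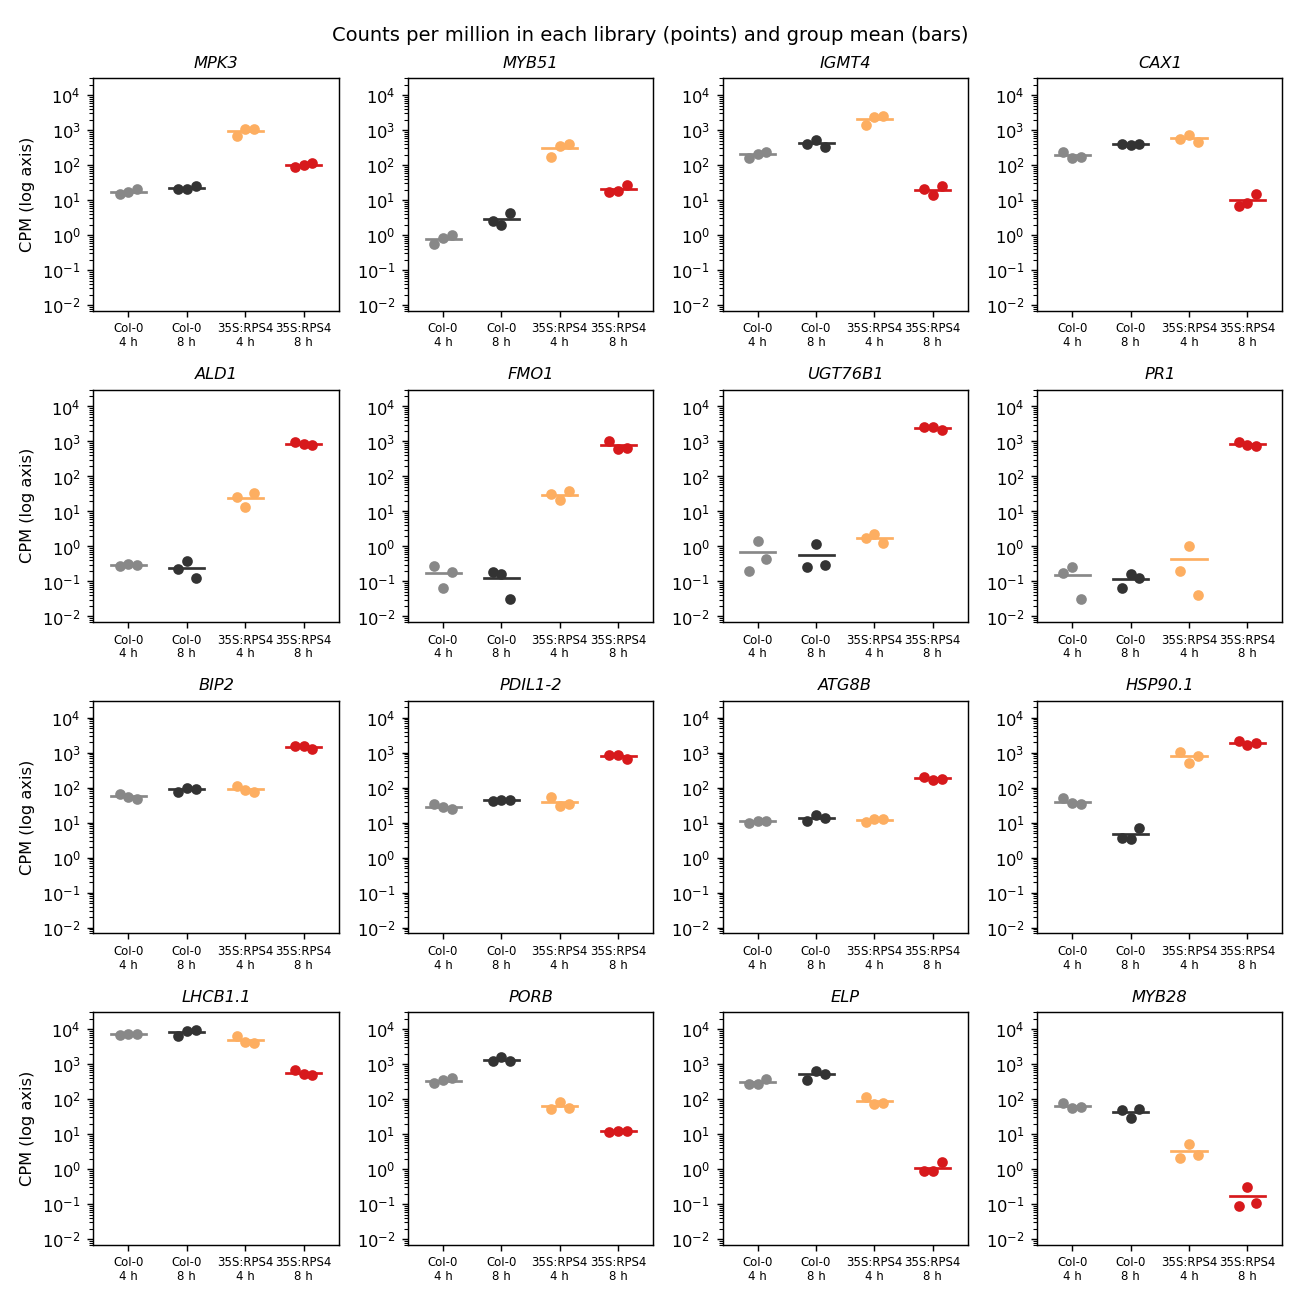
CPM (log axis) of 16 genes in each of the 12 libraries, as points, with the group means as bars. MPK3, MYB51, IGMT4 and CAX1 drop from 4 h to 8 h in 35S:RPS4, ALD1, FMO1, UGT76B1, PR1, BIP2, PDIL1-2 and ATG8B climb, and LHCB1.1, PORB, ELP and MYB28, below Col-0 at 4 h, are further below it at 8 h.

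Other growing or late rises included the following genes. UGT73D1, a glucosyltransferase gene, stood at 2.79, 1.35 and 2.16 CPM in 35S:RPS4 at 4 h and at 469.9, 383 and 382 CPM at 8 h, with 0.0642 to 0.326 CPM in Col-0 (change 8.94 ± 0.78, edgeR, adjusted p = 1.3e-06). ARD3, an acireductone dioxygenase gene of methionine salvage, went from 3.14, 2.4 and 2.12 CPM to 1531, 1333 and 1431 CPM (change 8.54 ± 0.54). Of 11 tau-class glutathione transferases, which join glutathione to reactive compounds, 6 (54.5%) moved up and 0 moved down. Over all genes tested 13.7% moved up and 23.6% moved down. The median line effect of the 11 was 3.38 at 4 h and 7.16 at 8 h. GSTU24 went from 6.63, 3.13 and 6.91 CPM to 152, 165 and 171 CPM (change 5.60 ± 0.69). Neighbouring GSTU genes are similar in sequence, so that reads shared by copies may be split or lost in these counts. UGT73D1 had the largest change among the named genes of the growing rise, and its promoter (chr3:19699343-19699642, minus strand, of TAIR10.1) is shown with TGACG sites, on either strand, and a GAANNTTC element in capitals.
UGT73D1: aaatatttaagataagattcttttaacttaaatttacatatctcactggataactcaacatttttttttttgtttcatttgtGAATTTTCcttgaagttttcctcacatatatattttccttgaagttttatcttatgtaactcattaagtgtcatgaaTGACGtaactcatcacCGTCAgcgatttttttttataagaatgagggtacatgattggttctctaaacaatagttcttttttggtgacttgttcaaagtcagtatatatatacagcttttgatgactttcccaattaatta

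Genes for protein folding in the endoplasmic reticulum (ER) rose late and together. Of 14 tested, 12 (85.7%) moved up and 0 moved down, against 13.7% and 23.6% over all genes tested. The median line effect of the 14 was 0.17 at 4 h and 2.92 at 8 h. Between the times, 35S:RPS4 rose in 13 of the 14 (median 3.24) and Col-0 in 0 (median 0.57). BIP2, a major chaperone of the ER with a near-identical copy in BIP1, stood at 111, 83.9 and 76.4 CPM in 35S:RPS4 at 4 h and at 1540.0, 1519 and 1264 CPM at 8 h, with 47.2 to 102 CPM in Col-0 (change 3.32 ± 0.26, edgeR, adjusted p = 5.9e-07). PDIL1-2, a protein disulphide isomerase, went from 54.7, 30.4 and 33.5 CPM to 839.8, 881 and 671 CPM (change 3.74 ± 0.29). CNX1, the lectin chaperone calnexin, changed by 2.93 ± 0.22 and SHD, the HSP90-type chaperone of the ER, by 3.02 ± 0.28. At 4 h the lines overlapped in PDIL1-2 and CNX1, while 35S:RPS4 lay slightly above Col-0 in BIP2 and slightly below it in SHD, and at 8 h it lay far above Col-0 in all of them. BZIP60, a transcription factor of the unfolded protein response, differed from its list, with line effects of 4.11 and 3.65 and no call for the change. CRT3, a calreticulin needed for the receptor EFR, did not pass either.

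Over all genes tested 13.7% moved up and 23.6% moved down, and of 11 heat shock genes 3 (27.3%) moved up and 1 (9.09%) moved down. The sign of their median change depended on the setting, being -0.46 here, 0.20 with limma voom, 0.27 with a filter at 1 CPM and 0.98 without Col-0 replicate 3 at 8 h, and without 35S:RPS4 replicate 1 at 4 h, 4 moved up and 2 moved down. HSP90.1, a chaperone of NLR proteins, stood at 1073, 502 and 833 CPM in 35S:RPS4 at 4 h and at 2234, 1629 and 1970.0 CPM at 8 h, whereas Col-0 fell from 50.7, 36.4 and 33.7 CPM to 3.69, 3.44 and 6.96 CPM. The change of 4.38 ± 0.44 was made up of 1.28 ± 0.29 in 35S:RPS4 and -3.10 ± 0.33 in Col-0. For HSP70 the part of 35S:RPS4 (0.94 ± 0.36) was not called and Col-0 fell by 3.48 on the log2 scale. HSFA3, a heat shock transcription factor gene that overlaps an exon on the other strand, turned from a line effect of 3.08 ± 0.27 to -2.03 ± 0.29.

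Of 12 autophagy genes tested, 5 moved up and 1 moved down. The shares were 41.7% above 0 and 8.33% below 0, beside 13.7% and 23.6% over all genes tested. With library totals, DESeq2, its size factors in edgeR or a filter at 1 CPM, 0 autophagy genes moved down. Leaving out 1 library also gave 0 down, except for Col-0 replicate 3 at 4 h or 1 at 8 h. The other exceptions were 35S:RPS4 replicate 1 at 4 h and replicate 2 at 8 h. ATG8B, a ubiquitin-like protein of the autophagosome membrane, stood at 10.6, 12.6 and 13.3 CPM in 35S:RPS4 at 4 h, close to Col-0 (at most 17.2 CPM), and at 209, 168 and 182 CPM at 8 h (change 3.60 ± 0.23). NBR1, a receptor that carries ubiquitinated cargo, went from 175, 171 and 171 CPM to 835, 925 and 835 CPM (change 1.59 ± 0.15) and overlaps an exon on the other strand. Of 12 cell death and oxidative stress genes, 4 (33.3%) moved up and 2 (16.7%) moved down, against 13.7% and 23.6% over all genes tested. With libraries scaled by their totals 0 moved down. Only 1 moved down with limma voom, DESeq2 size factors in edgeR, a filter at 1 CPM, the replicate block or all 18 libraries. The same held without Col-0 replicate 1 or 3 at 4 h, or Col-0 replicate 2 or 3 at 8 h. It also held without 35S:RPS4 replicate 2 or 3 at 4 h, or any 35S:RPS4 library at 8 h. BI1, the cell death suppressor BAX inhibitor 1, changed by 1.56. At the plasma membrane, the syntaxin SYP122 fell from 1578, 1757 and 2225 CPM to 671, 524 and 642 CPM (change -2.22 ± 0.41), and PMR4, a callose synthase, had a change of 1.39.

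All 30 of the genes tested for photosystems, antenna and Rubisco moved down and 0 moved up (29 with libraries scaled by their totals). Over all genes tested 23.6% moved down and 13.7% moved up. The median line effect of the 30 was -0.29 at 4 h and -2.04 at 8 h. LHCB1.1, an antenna protein of photosystem II with near-identical copies, stood at 6261, 4189 and 4090.0 CPM in 35S:RPS4 at 4 h and at 683, 513 and 491 CPM at 8 h, against 6437 to 9366 CPM in Col-0 (change -3.30 ± 0.29). RBCS1A, a small subunit of Rubisco, went from 4626, 4061 and 4107 CPM to 2000.0, 2073 and 1924 CPM (change -1.52 ± 0.26), having overlapped with Col-0 at 4 h. The median own change of the 30 genes was -1.78 in 35S:RPS4 and 0.05 in Col-0. Their summed level was 80500 to 94000 CPM in 35S:RPS4 at 4 h, 22900 to 27100 CPM at 8 h, and 89100 to 116000 CPM in the 6 libraries of Col-0.

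All 12 genes of chlorophyll synthesis tested moved down as well (10 with libraries scaled by their totals). PORB, a light-dependent protochlorophyllide reductase, was called lower at 4 h already with 51.7, 80.6 and 56.7 CPM against 284, 343 and 393 CPM in Col-0. At 8 h it stood at 11.6, 12.2 and 12.6 CPM, while Col-0 had risen to 1213, 1578 and 1262 CPM (change -4.36 ± 0.26, edgeR, adjusted p = 1.1e-07). Both lines thus moved, in opposite directions. GUN4, which activates magnesium chelatase, fell in both lines but further in 35S:RPS4, from 79.6, 77.3 and 58.8 CPM to 1.21, 0.892 and 1.83 CPM (change -3.73 ± 0.32). PORB and GUN4 each overlap an exon on the other strand.

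Growth and surface genes were mostly lower in 35S:RPS4 at 4 h already. Of 16 genes of auxin and leaf growth, 12 were called lower at 4 h. For the change 0 moved up and 7 (43.8%) moved down, against 13.7% and 23.6% over all genes tested. Growing falls made up 6 of the 7. EXPA5, an expansin that loosens cell walls, went from 18.4, 22.5 and 15.2 CPM in 35S:RPS4 at 4 h to 0.447, 0.251 and 0.247 CPM at 8 h, with 52.8 to 91.1 CPM in Col-0 (change -6.24 ± 0.37). PIN7, an auxin efflux carrier, went from 8.82, 21.6 and 10.1 CPM to 0.491, 0.669 and 0.565 CPM (change -5.01 ± 0.46). In each, the 35S:RPS4 libraries lay below Col-0 at 4 h and further below at 8 h. ELP, annotated as an extensin-like protein, had one of the strongest growing falls, from 114, 74.6 and 79.8 CPM to 0.893, 0.892 and 1.55 CPM (change -7.07 ± 0.41). Of 7 cuticle genes, 6 were called lower at 4 h. For the change 6 (85.7%) moved down and 0 moved up, against 23.6% and 13.7% over all genes tested. The 6 were 5 growing falls and 1 late fall. CER1, an enzyme of wax alkane synthesis, went from 35.4, 17.3 and 16.5 CPM to 0.938, 1.31 and 1.09 CPM (change -3.55 ± 0.43), and GPAT4, an enzyme of cutin synthesis, changed by -3.59 ± 0.45.

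GER3, a germin-like protein, had the largest change of the late falls, and Col-0 carried much of it. Col-0 rose from 32.9, 36.2 and 30.2 CPM at 4 h to 601, 835 and 764 CPM at 8 h, and 35S:RPS4 stood at 31.4, 2.63 and 3.91 CPM at 4 h and at 0.268, 0.167 and 0.212 CPM at 8 h. Replicate 1 of 35S:RPS4 at 4 h was level with Col-0 and the other two lay well below it. The GER3 change of the line effect was -10.34 ± 1.19 with that library and -8.41 without it. Its promoter (chr5:6975987-6976286, minus strand, of TAIR10.1), shown as that of the named late fall with the largest change, holds none of the 9 motifs.
GER3: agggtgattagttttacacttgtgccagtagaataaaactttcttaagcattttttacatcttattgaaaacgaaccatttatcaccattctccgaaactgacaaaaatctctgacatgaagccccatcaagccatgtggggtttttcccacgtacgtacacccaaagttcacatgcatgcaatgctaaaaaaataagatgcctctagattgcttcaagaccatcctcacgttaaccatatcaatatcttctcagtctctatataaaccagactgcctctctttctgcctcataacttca

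Other metabolic branches fell too. Of 14 genes of aliphatic glucosinolates, 6 (42.9%) moved down and 0 moved up, against 23.6% and 13.7% over all genes tested. Their median line effect was -2.44 at 4 h and -5.25 at 8 h. MYB28, the main regulator of this branch, stood at 2.14, 5.18 and 2.56 CPM in 35S:RPS4 at 4 h and at 0.0893, 0.307 and 0.106 CPM at 8 h, against 29.9 to 79.8 CPM in Col-0 (change -3.62 ± 0.61). This contrasts with the indole branch, whose regulator MYB51 was above Col-0 at both times. Of 14 genes of phenylpropanoids and flavonoids, 8 (57.1%) moved down and 0 moved up, against 23.6% and 13.7% over all genes tested. Both lines fell, however, by a median of -3.63 in 35S:RPS4 and -1.78 in Col-0. PAL1, which starts this pathway, went from 2314, 2151 and 1868 CPM to 135, 164 and 149 CPM in 35S:RPS4 and from 1930.0, 1574 and 1024 CPM to 500.1, 399 and 222 CPM in Col-0 (change -1.81 ± 0.38).

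**Figure D3:**
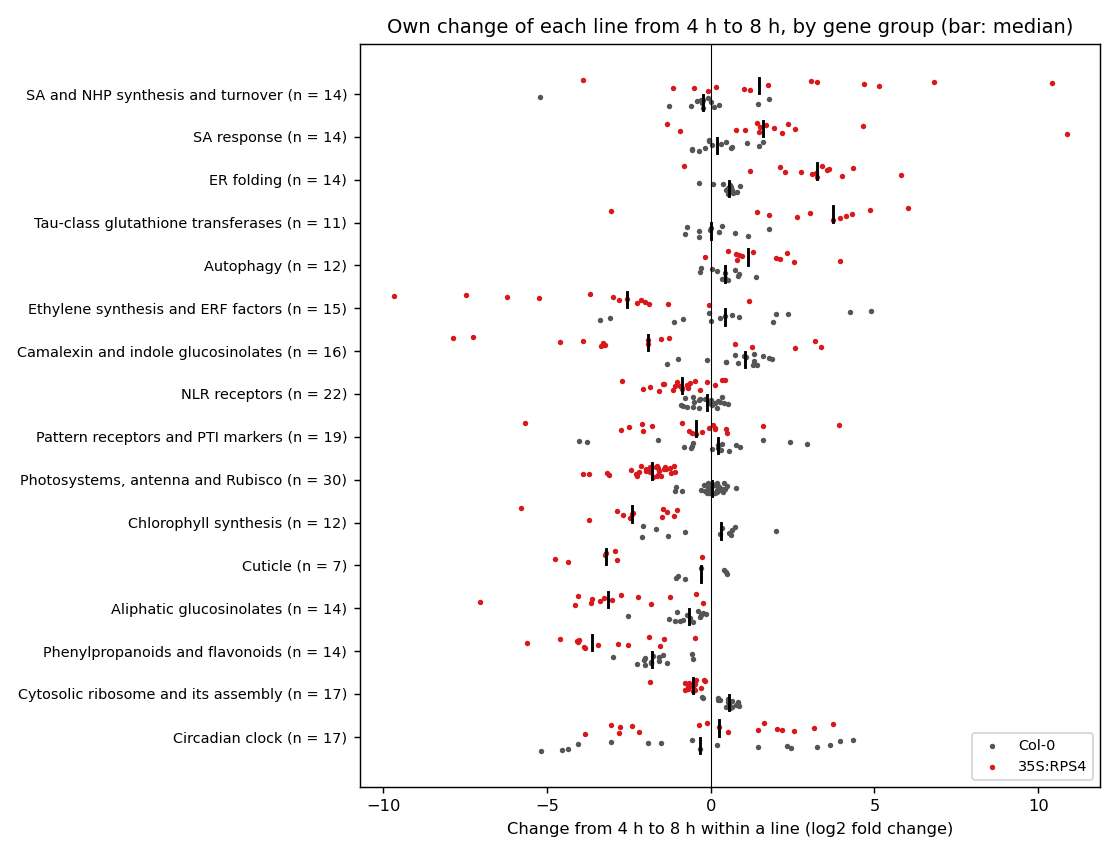
Change from 4 h to 8 h within each line (log2 fold change, horizontal axis) of the members of 16 gene groups, with 1 point per gene for Col-0 (grey) and 35S:RPS4 (red) and bars at the medians. Photosystem genes have medians of -1.78 in 35S:RPS4 and 0.05 in Col-0, whereas phenylpropanoid genes fall in both lines with medians of -3.63 and -1.78.

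Of 15 cold-response genes tested, 11 were called below Col-0 at 8 h and 2 above it. For the change 8 (53.3%) moved down and 0 moved up, against 23.6% and 13.7% over all genes tested. The median line effect of the list was -0.39 at 4 h and -2.82 at 8 h. COR47, a dehydrin, stood at 392, 579.9 and 556 CPM in 35S:RPS4 at 4 h and at 42.1, 33.6 and 138 CPM at 8 h, against 531 to 1133 CPM in Col-0 (change -3.04 ± 0.63). CBF2 and CBF3, regulators of cold acclimation, were called lower at both times with no call for the change. ZAT10, a zinc-finger repressor in this list that also responds to defence signals, was a shrinking rise instead, from 299, 533 and 474 CPM to 52.7, 50.3 and 73.5 CPM. The ZAT10 change of the line effect was -3.42 ± 0.75, and -2.07 without Col-0 replicate 3 at 8 h.

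Clock genes moved in both lines. LHY, a morning-phased clock factor, fell from 106, 107 and 110.5 CPM to 7.0, 3.27 and 3.74 CPM in Col-0 and from 108, 102 and 114 CPM to a mean of 15.7 ± 3.90 CPM (SD) in 35S:RPS4. The lines were level at 4 h and apart at 8 h (change 1.74 ± 0.33). TOC1, an evening-phased factor, stood at a mean of 15.5 ± 2.07 CPM (SD) in Col-0 and at 79, 56.8 and 89.3 CPM in 35S:RPS4 at 4 h, and at 161, 135 and 139 CPM and 198, 205 and 203 CPM at 8 h (change -1.80 ± 0.22). Of 17 clock genes, 5 (29.4%) moved up and 2 (11.8%) moved down, against 13.7% and 23.6% over all genes tested. The 5 were the morning-phased CCA1, LHY, PRR9, RVE8 and LNK1 and the 2 the evening-phased BOA and TOC1. GI, FKF1 and PRR5 had changes between -0.23 and 0.09 that did not pass.

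The calls of ribosome genes depended on scaling. Of 17 genes of the cytosolic ribosome and its assembly, 13 (76.5%) moved down and 0 moved up (median change -1.13). Over all genes tested 23.6% moved down and 13.7% moved up. With libraries scaled by their totals 6 ribosome genes moved down. A single member was called within 35S:RPS4. That member was FIB2, a fibrillarin of the nucleolus, which went from 154, 135 and 121 CPM to 33, 45 and 36 CPM (change -2.39 ± 0.24). Of 10 genes commonly used as references, 1 moved down, GAPC2 (change -1.57), and 0 moved up. Their median change was -0.02, and 0.17 with libraries scaled by their totals. The summed level of the 10 was less steady, with 4190 to 4860 CPM in 35S:RPS4 at 4 h and 2590 to 2630 CPM at 8 h. In Col-0 it was 2250 to 2390 CPM at 4 h and 1810 to 2360 CPM at 8 h. Within 35S:RPS4, 2 of the 10 fell between the times. Of 13 senescence and NAC genes, 3 (23.1%) moved up and 1 (7.69%) moved down, against 13.7% and 23.6% over all genes tested. Their median change also changed sign with scaling (-0.01 and 0.18). Without Col-0 replicate 3 at 8 h, 7 of them moved up, with a median of 1.06, and without Col-0 replicate 1 at 8 h, 2 moved up and 2 moved down. Of 10 cell cycle genes 2 moved down (20%, near the 23.6% of all genes tested), and 4 with DESeq2 or without Col-0 replicate 1 at 4 h. Of 6 danger peptide genes 3 (50%) moved down, against 23.6% of all genes tested, and 1 without Col-0 replicate 2 at 8 h.

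**Figure D4:**
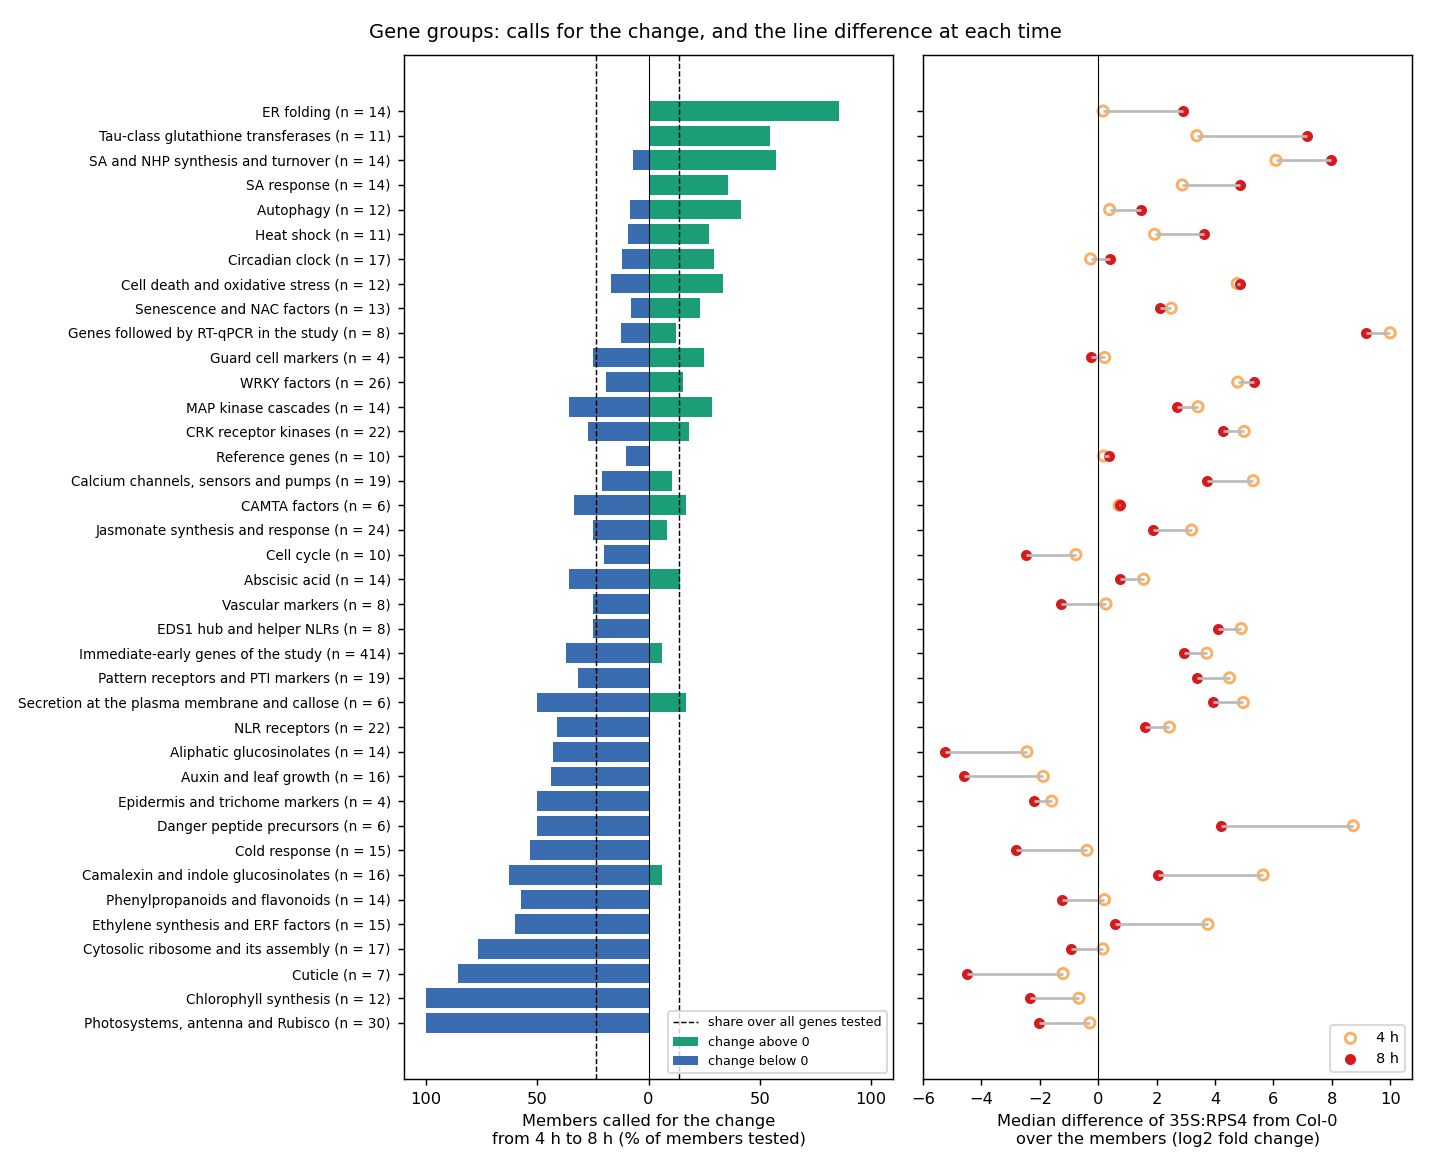
For 38 gene groups, the share of members called for the change (left, % of members tested, to the right for above 0 and to the left for below 0, with dashed lines at the shares over all genes tested, 13.7% and 23.6%) and the median line effect at 4 h and 8 h (right, log2 fold change). ER folding has 12 of 14 members above 0, and photosystems have 30 of 30 below 0.

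Markers of other cell types were followed beside these values. The summed level of 4 epidermis markers was 106 to 127 CPM in 35S:RPS4 at 4 h and 63.1 to 66.4 CPM at 8 h, against 273 to 443 CPM in Col-0, and 2 of 4 moved down, FDH and GL2. The 4 guard cell markers summed to 36.7 to 61.1 CPM over the 12 libraries with overlapping groups, with 1 up (KAT1) and 1 down (MYB60). The 8 vascular markers summed to 343 to 438 CPM in 35S:RPS4 at 4 h and to 98.7 to 216 CPM at 8 h. Col-0 held 256 to 537 CPM. Of the 8, SWEET11 and SWEET12 moved down, 25% against 23.6% over all genes tested. With library totals, with all 18 libraries or without most single libraries 1 vascular marker was called, and without Col-0 replicate 1 at 4 h, 4 were. Markers of root, flower and seed summed to 1.44 to 17.3 CPM in any library. The part of such markers in the falls of cuticle and growth genes was not tested.

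The promoters of each class were searched for known motifs, and the shares are given as a description with no test. Windows of 300 bases around 37897 annotated starts were searched on both strands. CGCG, the core bound by CAMTA factors, was in 19.8% of 808 promoters of shrinking rises, 15.1% of 503 of growing rises and 12.2% of 1691 of late rises, against 14.2% of the 19516 genes tested and 13.2% of all promoters. The longer CGCGTT, which contains CGCG, was in 8.42%, 4.57% and 2.72%, against 3.83% of the genes tested and 3.36% of all promoters. The W-box TTGACT was in 37.3%, 30.6% and 21.5% against 21.9% and 21.2%, and TTGACC in 22.4%, 16.9% and 15.7% against 14.6% and 13.5%. TGACG, bound by TGA factors, was in 23.9% of shrinking and 28.6% of growing rises, against 23.9% of the genes tested and 22.6% of all promoters. CACGTG, the G-box, was in 8.17%, 8.75% and 10.6% of shrinking, growing and late rises and in 8.77% of the genes tested, with 6.46% of all promoters. GAANNTTC was in 18.8% and 19.5% of shrinking and growing rises and in 11.9% of the genes tested, with 11.4% of all promoters. The evening element AAAATATCT was in 4.70% of shrinking rises and 4.13% of growing falls against 3.07% and 2.49%, and AAACCCTA, the telo-box, in 7.60% of late falls and 3.00% of growing falls against 5.61% and 6.17%. The shrinking rises pool the genes still higher, no longer called and called lower at 8 h. In these, in that order, CGCG was in 22.4% of 340, 18.9% of 360 and 14.8% of 108 promoters. For CGCGTT the shares were 9.71%, 8.61% and 3.7%. Those called lower were thus near the genes tested for both motifs. Genes called higher at both times with no call for the change were not searched as a class. A match says only that these letters are present.

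**Figure D5:**
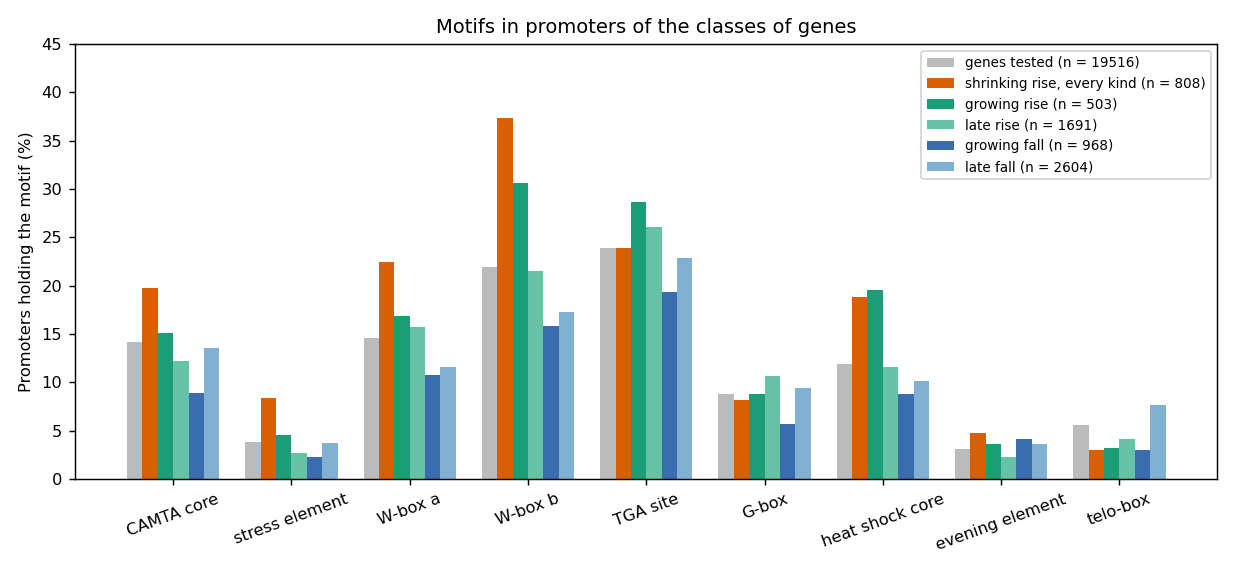
Share of promoters (%) holding each of 9 motifs, searched on both strands of 300 bases, for the genes tested and for the classes of rises and falls. The CAMTA core and the W-boxes stand highest in the shrinking rises, at 19.8% for CGCG and 37.3% for TTGACT.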

How the data were processed

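Leaf RNA-seq of 12 libraries, taken 4 h and 8 h after the shift from 28 °C to 19 °C, was used. The authors deposited raw counts of read pairs per gene. Per the labels, poly(A) RNA depleted of rRNA was sequenced in pairs, and the submitters' processing notes name FastQC 0.11.2, TopHat2 2.0.10, HTSeq and TAIR10. The HTSeq version and its strand setting are not given in the sources used here, so genes that overlap on opposite strands cannot be told apart. Rows that name no gene were left out, the largest of them (no feature) holding 48.5 to 49.2%.

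Genes were filtered with filterByExpr, which kept 19674 of 32678, scaled by TMM and fitted with a quasi-likelihood model over 4 groups (edgeR 4.0.16, R 4.3.3, limma 3.58.1). The 5 contrasts were the change of the line effect, the line effect at either time, and the difference of 8 h from 4 h in either line. P-values were adjusted by the Benjamini-Hochberg method over all genes tested, and genes were called below 0.01 with an absolute log2 fold change above 1. The code was tested on simulated data. Replicate numbers were not treated as pairs. Alternatives were DESeq2 1.42.0 and its size factors, limma voom, library totals, other filters, all 18 libraries, a replicate block and leaving out each library.

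Named genes were the called genes with a symbol, at least 10 CPM in a group and 1 sign over all choices of libraries, the 10 largest in each direction and 5 largest in each class, with RPS4, the genes of the study's RT-qPCR and up to 4 called members of each list. Other list members were named after their values were seen. The comparison, its members and the gene lists were chosen with earlier results of these data known. Promoters were read from RefSeq TAIR10.1 by locus code. Some promoters are not reported here.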

Additional observations from a re-analysis of the deposited data

Results flagged for a closer look

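In 109 genes the line effect was called above 0 at 4 h and below 0 at 8 h, with a call for the difference between the times by edgeR's quasi-likelihood test. Their median line effect was 2.01 at 4 h and -2.39 at 8 h, and the sign of the change was the same for every choice of 1 library per group in all 109. The signs of these medians follow from the calls that picked the genes. The choices reuse the same libraries and are no separate support. CAX1 (1.62 and -5.31) and ERF6 (6.83 and -1.73) are among them.

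In 51 genes the line effect was called below 0 at 4 h and above 0 at 8 h, again with a call for the difference. Their median line effect was -1.52 at 4 h and 1.54 at 8 h, and the sign of the change was the same for every choice of libraries in all 51. Here too the genes were picked by calls in these same libraries, so neither is separate support. UGT74F2 (-1.77 and 1.39) and CYP707A4 (-2.97 and 5.00) are among them.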

How the results depend on the processing

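No count over all genes and no called change of a named gene was reversed under an alternative, but medians of some gene lists changed sign. Without Col-0 replicate 3 at 8 h, those of WRKY (0.34), CRK (0.46), heat shock (0.98) and abscisic acid genes (0.21) went above 0, and those of senescence and reference genes lay near 0 and changed sign under several settings, library totals among them. The clock median went from 0.09 to -0.06 without Col-0 replicate 2 at 8 h, and that of root, flower and seed markers from 1.85 to -3.73 with no filter. The change of the line effect was called above 0 in 2697 genes and below 0 in 4642, and in 3398 and 3940 with library totals, 3024 and 4358 with DESeq2 size factors in edgeR, 3276 and 4735 with DESeq2, 2865 and 4448 with limma voom, and 2668 and 4588 with all 18 libraries. With library totals 46.3% of the calls were above 0, against 36.7% with TMM, and the result for the line effect at 4 h, genes below 0, was 4213 (2440 with TMM). Shrinking falls depended most on the setting. With library totals 33 were still lower at 8 h, 345 were no longer called and 98 were higher, against 13, 151 and 51 with TMM, and 23 were still lower with DESeq2 and 8 with limma voom. Leaving out 1 library at a time gave 2467 to 2972 genes above 0 and 4257 to 4609 below 0, and 8 to 19 shrinking falls still lower at 8 h, the 8 without 35S:RPS4 replicate 1 at 8 h and the 19 without 35S:RPS4 replicate 1 at 4 h.

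With the replicate number as a block, 2767 genes were above 0 and 4572 below 0. Of 18 same-numbered pairs of libraries, 4 had deviations correlated above 0.1 (range -0.0991 to 0.225). These 4 all joined the lines at the same time, replicates 1 and 3 at 4 h (0.215 and 0.217) and at 8 h (0.143 and 0.225). For replicate 2 the values were 0.0114 and 0.0337. Pairs with different numbers also passed 0.1, at 0.117 to 0.128, and those joined different times. The lowest value among pairs with different numbers was -0.251. Whether libraries of the same number shared handling was not tested. The main fit did not model the replicate number, and the block was shared by both times. With 3 libraries per group, genes near the count floor carry wide errors, and those with 0 counts in a group have no bounded fold change.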
